A study of Homo sapiens with 2 samples.

Results

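The genes examined here encode the machinery of fatty acid oxidation and of peroxisomes. They were 40 genes chosen by name for their roles in mitochondrial and peroxisomal beta-oxidation, among the peroxins or as coactivators of the PPAR nuclear receptors. The choice was made with earlier results of these data known. Of these, 37 had a probe set of their own on the array, out of 19775 such genes in all. Gene expression was measured on Affymetrix arrays in H322c cells, an established NSCLC cell line, which were plated 24 hrs before treatment. One array was probed with RNA from cells kept for 4 days in 1 µM gefitinib, an inhibitor of the EGFR tyrosine kinase, and the other with RNA from control cells kept for 4 days in 0.1% DMSO. With 1 array per condition there was no replicate and no test, so each difference describes these 2 arrays and their number limits the precision.

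Fatty acids are broken down in mitochondria and in peroxisomes. Long chains enter the mitochondrial matrix as carnitine esters and are then shortened by repeated dehydrogenation, hydration, a second dehydrogenation and thiolysis. Peroxisomes shorten very long and branched chains with a first enzyme that passes electrons to oxygen and makes hydrogen peroxide, which catalase removes. Peroxins build the organelle and import its enzymes, and the PPAR receptors with their coactivators switch on many genes of both pathways in liver, muscle and other tissues that burn fat. In the lung, alveolar type II cells and club cells are known to be rich in peroxisomes.

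Each probe set, a group of short oligonucleotides against a transcript, had a MAS5 signal on a linear scale. Signals under 100 were set to 100, the gefitinib signal was divided by the DMSO signal and the log2 taken, and a probe set was counted as measured where it reached 100 on at least 1 array. Each gene was represented by its brightest measured probe set, and differences of 2-fold or more were counted. A fold with 1 signal under 100 can only be a minimum, and such folds carry the words at least.

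Of the 40 members, 33 were measured, and 11223 genes were measured in all. Of these, 29 reached 100 on both arrays, while MLYCD, CROT and PPARGC1B did so with gefitinib alone and ACOX2 with DMSO alone, so the ratios of these 4 could lie on 1 side of 0 only. CPT1B, SCP2 and PEX13 had no probe set annotated to them alone. SLC25A20, ACADS, EHHADH and PPARGC1A were under 100 on both arrays. Their signals were 74.9 with gefitinib and 69.8 with DMSO for SLC25A20, which carries acylcarnitines across the inner mitochondrial membrane, and 47.7 with gefitinib and 17.3 with DMSO for the short-chain dehydrogenase ACADS. The bifunctional enzyme EHHADH had 57.0 with gefitinib and 36.0 with DMSO. The coactivator PPARGC1A was at 4.7 with gefitinib and 5.2 with DMSO at 1569141_a_at, and at 0.8 with gefitinib and 7.9 with DMSO at 219195_at. No fold was taken for these 4 genes.

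At least 2-fold higher with gefitinib were 5 of the 33 members (15.2%), ACADSB, CRAT, PPARGC1B, ACAA1 and ACOX3, against 13.3% of all measured genes. At least 2-fold lower was 1 member (3.03%), ACOX2, against 6.2% of all measured genes. The share of members past 2-fold was thus near the share of all genes in the upward direction and rested on a single gene in the downward direction. The median log2 ratio of the 33 members was 0.23, against 0.12 for all measured genes, and 25 of the 33 (75.8%) were above 0, against 57.0% of all genes. This count changed with scaling. With scaling to the bacterial spike-in transcripts, 17 of 32 members were above 0, against 46.2% of all genes. With quantile normalization or lowess correction it was 27 of 33, against 53.6% and 54.1% of all genes. Centring on control probe sets gave 28 of 33, against 64.9% of all genes, and scaling to GAPDH gave 29 of 33, against 72.3%.

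At the level of probe sets, the members had 71, of which 52 were measured. Of these, 9 (17.3%) were at least 2-fold higher with gefitinib, against 12.1% of all measured probe sets with 1 gene, and 1 (1.92%) was at least 2-fold lower, against 7.26%. Among the 16 members with more than 1 measured probe set, the measured probe sets had the same sign in 13 and differed in sign in HADH, PEX14 and PEX11A. The share of all genes whose probe sets differed in sign was not counted. The remaining 17 measured members rested on a single measured probe set.

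**Figure D1:**
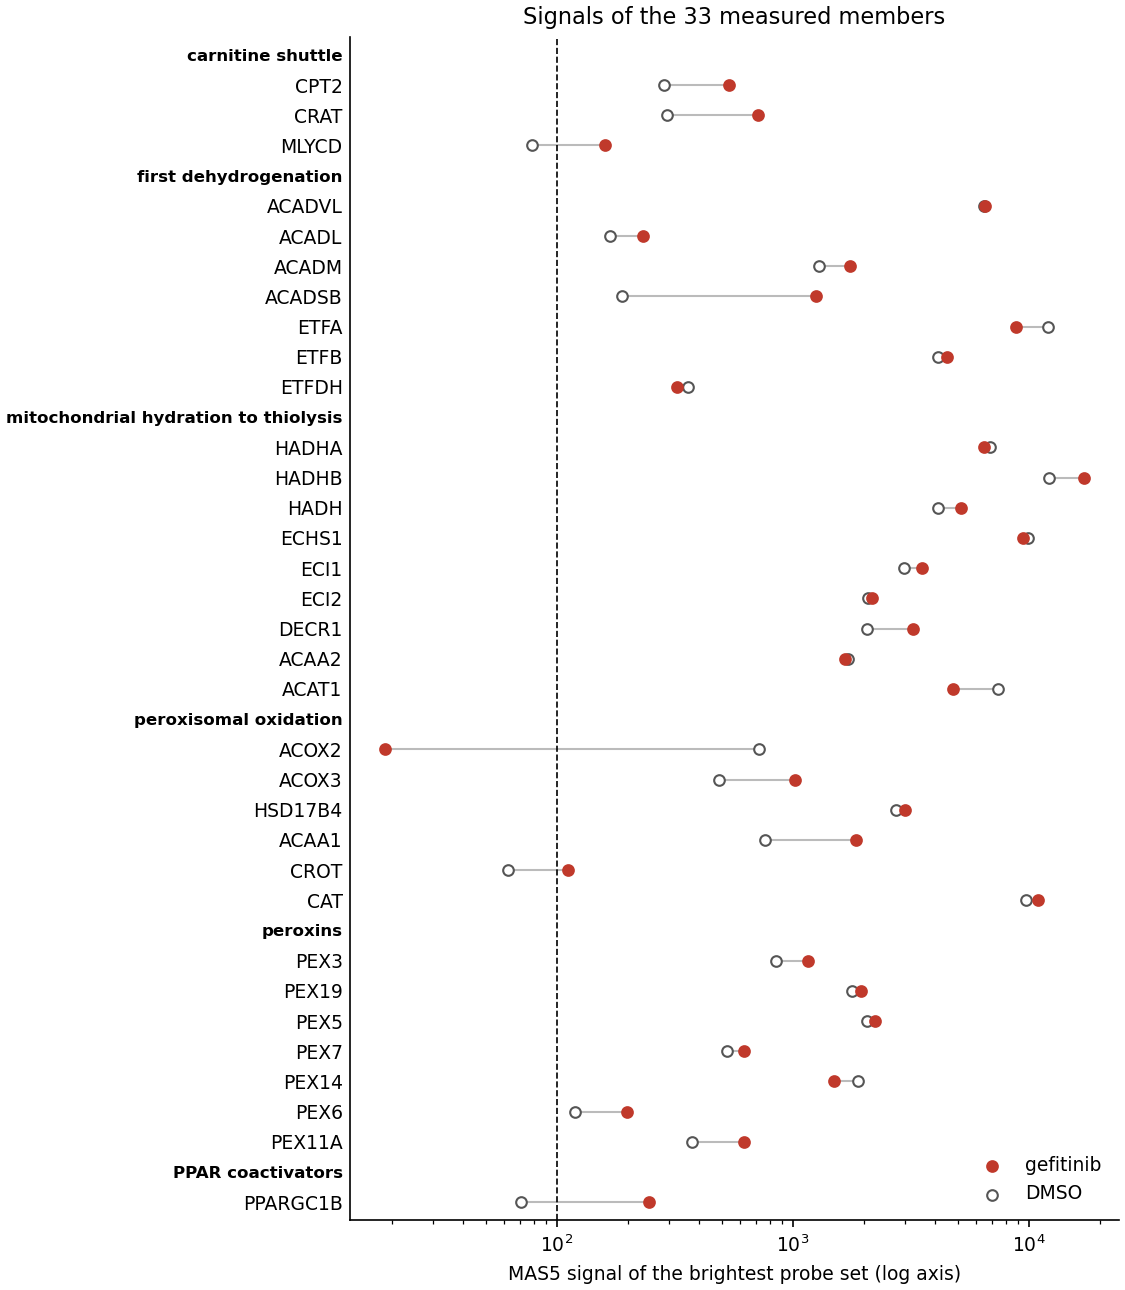
MAS5 signal (horizontal log axis) of the brightest probe set of each of the 33 measured members with gefitinib (red) and DMSO (open), 1 array per condition, grouped by role; the dashed line is the floor of 100. The points of most mitochondrial enzymes lie close together, while ACADSB lies at 1249.4 with gefitinib and 189.4 with DMSO and ACOX2 at 18.7 with gefitinib and 719.8 with DMSO.

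The cells carried the markers of their labelled type. All 5 epithelial markers (EPCAM, CDH1, KRT8, KRT18 and KRT19) were measured, with brightest signals between 15823.9 and 30962.3 with gefitinib and between 14038.1 and 38923.3 with DMSO. Of the leukocyte markers, PTPRC and CD3E were under 100 on both arrays and CD68 had no probe set of its own, and the adipocyte and hepatocyte markers ADIPOQ, ALB and APOA1 were under 100 on both arrays. Of the endothelial markers, VWF was at 496.0 with gefitinib and 30 with DMSO at its brightest, and PECAM1 at 78.0 with gefitinib and 128.4 with DMSO. The part of VWF-expressing cells in the values of the members was not tested.

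The carnitine shuttle moves fatty acyl groups into mitochondria. Of the 5 members that belong to the shuttle or act beside it, CRAT, CPT2 and MLYCD were measured and CPT1B and SLC25A20 were not. CRAT and CPT2 reached 100 on both arrays and had higher signals with gefitinib, against 57.0% of all measured genes above 0. MLYCD reached 100 with gefitinib alone, so its ratio could not lie below 0. The median log2 ratio of the 3 was 0.92, against 0.12 for all measured genes. CRAT, the carnitine acetyltransferase that buffers acetyl-CoA, had a signal of 715.7 with gefitinib and 292.3 with DMSO at 209522_s_at, 2.45-fold higher (log2 ratio 1.29). At its other probe set, 205843_x_at, it had 365.6 with gefitinib and 167.6 with DMSO, 2.18-fold higher. Both CRAT probe sets therefore passed 2-fold, as they did for only 1 other member with more than 1 measured probe set, ACOX3. CPT2, which converts acylcarnitines back to acyl-CoA at the inner mitochondrial membrane, had 538.0 with gefitinib and 284.5 with DMSO at 204263_s_at, 1.89-fold higher. At 204264_at it had 500.7 with gefitinib and 302.2 with DMSO, 1.66-fold higher. CPT2 passed 2-fold with centring on control probe sets (log2 ratio 1.06) or scaling to GAPDH (1.20). MLYCD removes malonyl-CoA, the inhibitor of the entry step, and was at 160.1 with gefitinib and 78.3 with DMSO, at least 1.60-fold higher. Its other probe set, 230530_at, was under 100 on both arrays, with 43.6 with gefitinib and 74.3 with DMSO.

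Among the enzymes of the first dehydrogenation, 1 of 7 measured members was at least 2-fold higher (14.3%, against 13.3% of all measured genes). The median log2 ratio of the 7 was 0.13, against 0.12 for all measured genes. With spike-in scaling these medians were -0.06 and -0.07. ACADSB, a dehydrogenase of short and branched acyl-CoA that also acts in isoleucine breakdown, had the highest ratio of all members. At 226030_at its signal was 1249.4 with gefitinib and 189.4 with DMSO, 6.60-fold higher (log2 ratio 2.72). At 205355_at it was 416.6 with gefitinib and 218.1 with DMSO, 1.91-fold higher, so the probe sets shared the direction and differed in size, and the mean of their log2 ratios was 1.83.

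The chain-length dehydrogenases of straight fatty acids were within 2-fold. ACADVL, for very long chains, had 6541.0 with gefitinib and 6475.9 with DMSO (log2 ratio 0.01). ACADM, for medium chains, had 1748.5 with gefitinib and 1293.6 with DMSO (0.43), and ACADL, for long chains, had 231.9 with gefitinib and 168.7 with DMSO (0.46). The electron transfer flavoprotein takes electrons from these enzymes, and its subunits lay on either side of 0 as deposited. ETFA had 8828.3 with gefitinib and 12095.5 with DMSO (-0.45), and ETFB had 4492.4 with gefitinib and 4117.8 with DMSO (0.13). With spike-in scaling both were below 0, with ETFB at -0.06. ETFDH, which hands the electrons on to ubiquinone, had 322.9 with gefitinib and 361.3 with DMSO (-0.16). With scaling to GAPDH, ETFDH was above 0 (0.12).

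None of the 9 mitochondrial members that act after the first dehydrogenation passed 2-fold, and all of them were at or above 100 on both arrays. Of all measured genes, 13.3% were at least 2-fold higher and 6.2% at least 2-fold lower. The log2 ratios of the 9 ran from -0.63 to 0.66 with a median of 0.06, against 0.12 for all measured genes. Of the 9, 5 (55.6%) were above 0, against 57.0% of all measured genes. Their median was -0.13 with spike-in scaling and 0.34 with scaling to GAPDH, against -0.07 and 0.38 for all measured genes. HADHA and HADHB form the trifunctional protein of long-chain oxidation. HADHA had 6475.5 with gefitinib and 6825.0 with DMSO (-0.08) at the brightest of its 3 probe sets, which ran from -0.54 to -0.08, and HADHB had 17115.7 with gefitinib and 12189.7 with DMSO (0.49). Both subunits were within 2-fold. The sign of HADHA was not settled, since it was above 0 with quantile normalization (0.07), lowess correction (0.05), centring on control probe sets (0.06) or scaling to GAPDH (0.20).

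HADH, the dehydrogenase for shorter chains, had 5164.1 with gefitinib and 4123.4 with DMSO (0.32), and the hydratase ECHS1 had 9485.6 with gefitinib and 9948.7 with DMSO (-0.07). The isomerases that act on unsaturated chains were close to 0. ECI1 had 3538.5 with gefitinib and 2953.8 with DMSO (0.26), and ECI2 had 2171.4 with gefitinib and 2085.4 with DMSO (0.06). DECR1, the reductase that removes a further double bond, was the highest of these 9 members, with 3249.1 with gefitinib and 2058.8 with DMSO, 1.58-fold higher. The thiolase ACAA2 had 1664.1 with gefitinib and 1710.2 with DMSO (-0.04). ACAT1, the thiolase of acetoacetyl-CoA in ketone body and isoleucine metabolism, was the lowest, with 4792.7 with gefitinib and 7430.0 with DMSO, 1.55-fold lower. The signs of ECHS1, ACAA2 and ECI2 also changed with scaling. ECHS1 was above 0 with quantile normalization (0.13), lowess correction (0.08), centring on control probe sets (0.07) or scaling to GAPDH (0.21). ACAA2 was above 0 with such centring (0.10) or scaling to GAPDH (0.24), and ECI2 was below 0 with spike-in scaling (-0.13).

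**Figure D2:**
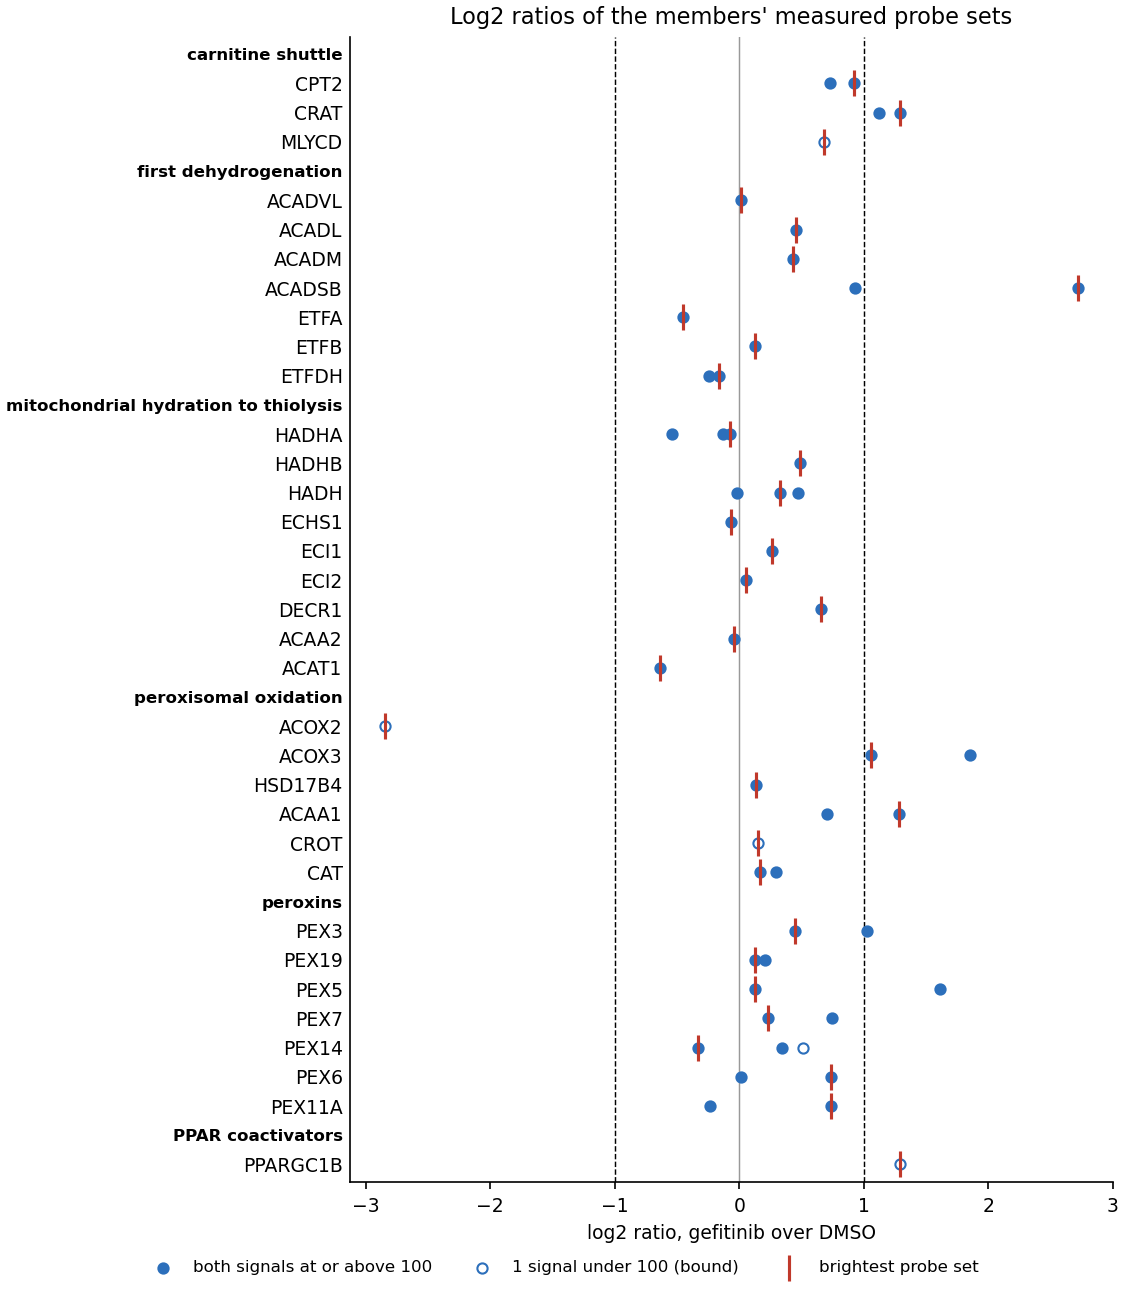
The 52 measured probe sets of the members, each plotted by its log2 ratio of gefitinib over DMSO (horizontal axis), from 1 array per condition. A filled point had signals of 100 or more on both arrays, an open point is a bound, a red bar shows which probe set was brightest, and 2-fold is dashed. The 9 mitochondrial members after the first dehydrogenation lie between the dashed lines, and ACADSB at 2.72 and ACOX2 at -2.85 are the extremes.

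Peroxisomal beta-oxidation held the widest range of ratios, from -2.85 to 1.28 over 6 measured members, and its first enzymes differed in direction. ACOX2, the oxidase for bile acid intermediates and branched chains, had a signal of 18.7 with gefitinib and 719.8 with DMSO, at least 7.20-fold lower (log2 ratio -2.85). ACOX2 had a single probe set, and the size of its bound followed the floor, with a log2 ratio of -3.85 at a floor of 50 and -1.85 at a floor of 200. ACOX3, an oxidase for pristanic acid and other branched chains, was higher at both of its probe sets. At 204241_at it had 1019.4 with gefitinib and 488.5 with DMSO, 2.09-fold higher (log2 ratio 1.06), and at 204242_s_at it had 655.0 with gefitinib and 180.8 with DMSO, 3.62-fold higher. The brighter probe set was below 2-fold with quantile normalization (log2 ratio 0.91), spike-in scaling (0.87), lowess correction (0.89) or log2 of the signal plus 50 (0.99).

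ACAA1, the peroxisomal thiolase, had 1849.0 with gefitinib and 761.4 with DMSO at 214274_s_at, 2.43-fold higher (log2 ratio 1.28). At 202025_x_at it had 829.1 with gefitinib and 509.9 with DMSO, 1.63-fold higher, and the mean of the 2 log2 ratios was 0.99. HSD17B4, the bifunctional enzyme that catalyzes the steps between oxidase and thiolase, was close to 0, with 2997.5 with gefitinib and 2728.2 with DMSO (0.14). So was CAT, catalase, with 10906.2 with gefitinib and 9704.8 with DMSO (0.17). CROT, which makes carnitine esters of the shortened chains for export, was near the floor, with 111.1 with gefitinib and 62.4 with DMSO, at least 1.11-fold higher.

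None of the 7 measured peroxins passed 2-fold at its brightest probe set. Among all measured genes, 13.3% were at least 2-fold higher and 6.2% at least 2-fold lower. The log2 ratios of the 7 ran from -0.33 to 0.74 with a median of 0.23, against 0.12 for all measured genes. With scaling to GAPDH, PEX6 (1.01) and PEX11A (1.02) passed 2-fold. PEX3 anchors PEX19 at the peroxisomal membrane, and PEX19 delivers membrane proteins to it. PEX3 had 1158.5 with gefitinib and 849.2 with DMSO at 203972_s_at (0.45). At 203970_s_at it had 1056.8 with gefitinib and 519.6 with DMSO, 2.03-fold higher. PEX19 had 1941.4 with gefitinib and 1775.6 with DMSO (0.13), with its other measured probe set at 0.21. PEX5 and PEX7 are the receptors that bring enzymes into the organelle. PEX5 had 2241.8 with gefitinib and 2054.8 with DMSO at 203244_at (0.13), but 315.1 with gefitinib and 103.1 with DMSO at 215481_s_at, 3.06-fold higher. PEX7 had 619.8 with gefitinib and 526.7 with DMSO at 211033_s_at (0.23). At 205420_at it had 571.0 with gefitinib and 340.7 with DMSO, 1.68-fold higher.

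The dimmer probe set had the higher ratio in PEX3, PEX5 and PEX7. PEX14, the docking protein for the receptors, had 1499.1 with gefitinib and 1882.3 with DMSO at 203503_s_at (-0.33) and 1619.4 with gefitinib and 1276.4 with DMSO at 33760_at (0.34), so its direction depended on the probe set. PEX6, an ATPase that recycles PEX5, had 199.3 with gefitinib and 119.9 with DMSO at 320_at, 1.66-fold higher, and a log2 ratio of 0.01 at 204545_at. PEX11A, which promotes peroxisome division, had 624.0 with gefitinib and 373.8 with DMSO at 205160_at, 1.67-fold higher. At 205161_s_at it had 298.1 with gefitinib and 351.2 with DMSO (-0.24), again of the opposite sign.

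Of the PPAR coactivators, PPARGC1B was measured and PPARGC1A was not. PPARGC1B had a signal of 245.1 with gefitinib and 70.3 with DMSO at 232181_at, at least 2.45-fold higher (log2 ratio 1.29). Its other 3 probe sets were under 100 on both arrays, and at a floor of 200 the bound at 232181_at was 0.29, so this value rests on a dim probe set.

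**Figure D3:**
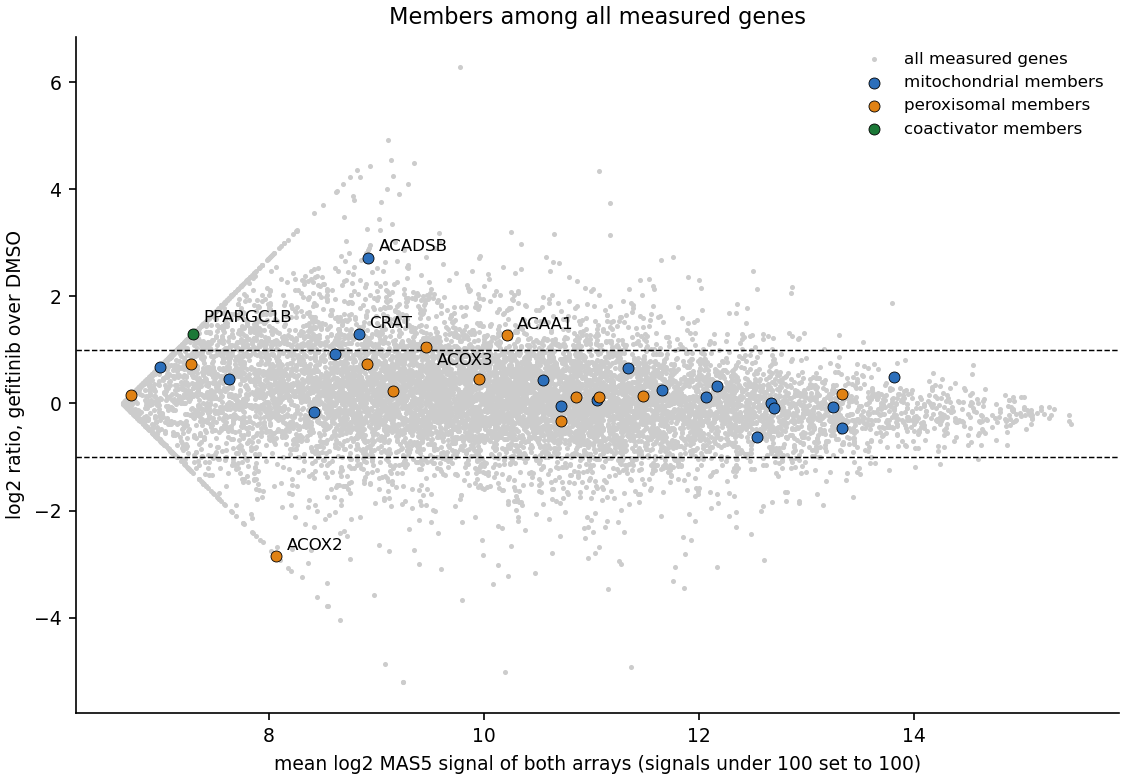
The 11223 measured genes (grey) by mean log2 signal over the arrays (horizontal axis, floor of 100) and log2 ratio of gefitinib over DMSO (vertical axis), with mitochondrial (blue), peroxisomal (orange) and coactivator (green) members, 1 array per condition. The dashed lines are at 2-fold, the slanted edges hold bounds, and the 6 named members are those past 2-fold.

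Promoter sequence was examined for 32 members, with sequences from RefSeq on GRCh38.p14. The promoters of CRAT, ACAA1 and ACOX2 were not used here. The 250 bases before the gene start are shown for ACOX3 (chr4:8440724-8440973, minus strand), a peroxisomal member with both probe sets past 2-fold. Capitals mark a match to TGACGTCA, the cAMP response element.
ACOX3: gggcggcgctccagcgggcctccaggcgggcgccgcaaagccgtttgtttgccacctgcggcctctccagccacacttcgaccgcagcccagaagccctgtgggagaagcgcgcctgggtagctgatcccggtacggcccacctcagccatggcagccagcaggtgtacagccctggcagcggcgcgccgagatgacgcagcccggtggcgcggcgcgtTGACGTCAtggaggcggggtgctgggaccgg

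The half-site of nuclear receptors, AGGTCA, was searched on both strands of the same 250-base window of every promoter, together with 2 such half-sites 1 base apart, the form that PPAR receptors bind, and TCAAGGTCA, the form that estrogen-related receptors bind, which contains the half-site. AGGTCA was found in none of the 32 member promoters, against 12.1% of 27305 promoters, and the longer forms, which occurred in 0.0183% and 0.319% of all promoters, were likewise not found. Of the motifs added after the sequences were seen, TGACGTCA was in the promoter of ACOX3 alone among the members, ending 24 bases before the start, against 1.77% of all promoters, and the E-box CACGTG was in that of PPARGC1A alone among the members, against 6.49%. A match is a run of letters and not a known site, and no match concerns only this window. G and C made up 72.0% of the ACOX3 window, with a median of 65.6% over the member promoters and 58.0% over all promoters.

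Beyond the 40 members, a list of 66 further genes of these pathways held 39 measured genes, of which 8 were at least 2-fold higher with gefitinib (20.5%, against 13.3% of all measured genes) and 1 at least 2-fold lower (2.56%, against 6.2%). Their median log2 ratio was 0.29, against 0.12 for all measured genes. Of the 22 list genes with more than 1 measured probe set, 9 had probe sets that differed in sign. The list was written with earlier results of these arrays known.

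Of 6 measured genes of carnitine entry and other mitochondrial oxidation, 4 (66.7%) were at least 2-fold higher at their brightest probe set, against 13.3% of all measured genes. With the mean over probe sets, CPT1A (0.85) and SLC22A5 (0.15) among these did not pass 2-fold. Of 5 measured acyl-CoA synthetases and uptake proteins, 1 (20%) was at least 2-fold higher, against 13.3% of all measured genes. Also 1 (20%) was at least 2-fold lower, against 6.2%, and the median log2 ratio of the 5 was -0.84. CPT1A, the outer membrane enzyme that controls entry of long chains, had 2612.1 with gefitinib and 781.5 with DMSO at 203633_at, 3.34-fold higher (log2 ratio 1.74). Its other measured probe sets were at 0.65 and 0.15, and the mean was 0.85. ACSL1, which activates long-chain fatty acids to acyl-CoA, had 4247.1 with gefitinib and 1576.8 with DMSO at 201963_at, 2.69-fold higher, and 3.02-fold higher at 207275_s_at, so that its probe sets went together. SLC22A5, the plasma membrane carnitine transporter, had 1004.4 with gefitinib and 264.0 with DMSO at 205074_at, 3.80-fold higher. At 239615_at it had 125.6 with gefitinib and 387.8 with DMSO, 3.09-fold lower, so its direction was not settled by these probe sets.

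The only gene of the list at least 2-fold lower was SLC27A4, a fatty acid transport protein with acyl-CoA synthetase activity, with 221.0 with gefitinib and 956.9 with DMSO, 4.33-fold lower at its single probe set. The remaining higher genes were of mixed function. ACAD8, a dehydrogenase of valine breakdown, had 1774.8 with gefitinib and 642.1 with DMSO, 2.76-fold higher, and ACAD10, a relative of the acyl-CoA dehydrogenases, had 343.2 with gefitinib and 148.7 with DMSO, 2.31-fold higher. ABCD4, a relative of the peroxisomal fatty acid transporters that acts in lysosomal cobalamin export, had 1000.7 with gefitinib and 288.4 with DMSO, 3.47-fold higher. PEX11G, a relative of PEX11A, had 408.5 with gefitinib and 137.1 with DMSO, 2.98-fold higher. The other 4 measured peroxins of the list ran from -0.51 to 0.65. Some genes of the list were within 2-fold at their brightest probe set but past it at another. These were higher in RXRA (log2 ratio 2.06), LONP2 (1.45) and PECR (1.19) and lower in ACOT8 (-2.16), ACACA (-2.10) and ACBD5 (-1.10).

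Of 8 measured genes of the PPAR axis and its targets, 4 (50%) were above 0 as deposited, against 57.0% of all measured genes, and 4 were below. The median log2 ratio was 0.14, against 0.12 for all measured genes. PPARA alone passed 2-fold at its brightest probe set (12.5%, against 13.3% of all measured genes higher). PDK4, ANGPTL4, UCP2, UCP3 and ESRRG were under 100 at every probe set on both arrays. ACOT2 had no probe set annotated to it alone, and PLIN2 was at -0.04. RXRA was at -0.17 at its brightest probe set, 202426_s_at. At 202449_s_at RXRA had 2026.4 with gefitinib and 486.7 with DMSO, 4.16-fold higher, so its direction depended on the probe set. PPARA, the receptor best known for inducing fatty acid oxidation genes, was under 100 with DMSO at its 3 brightest probe sets and above it with gefitinib. It had 368.8 with gefitinib and 18.9 with DMSO at 226978_at, at least 3.69-fold higher. At a floor of 200 this bound was a log2 ratio of 0.88, below 2-fold. At 223438_s_at PPARA had 349.2 with gefitinib and 34.1 with DMSO, and at 223437_at it had 289.0 with gefitinib and 83.7 with DMSO. The remaining measured probe set, 1560981_a_at, went the other way, with 60.2 with gefitinib and 126.3 with DMSO, at least 1.26-fold lower.

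**Figure D4:**
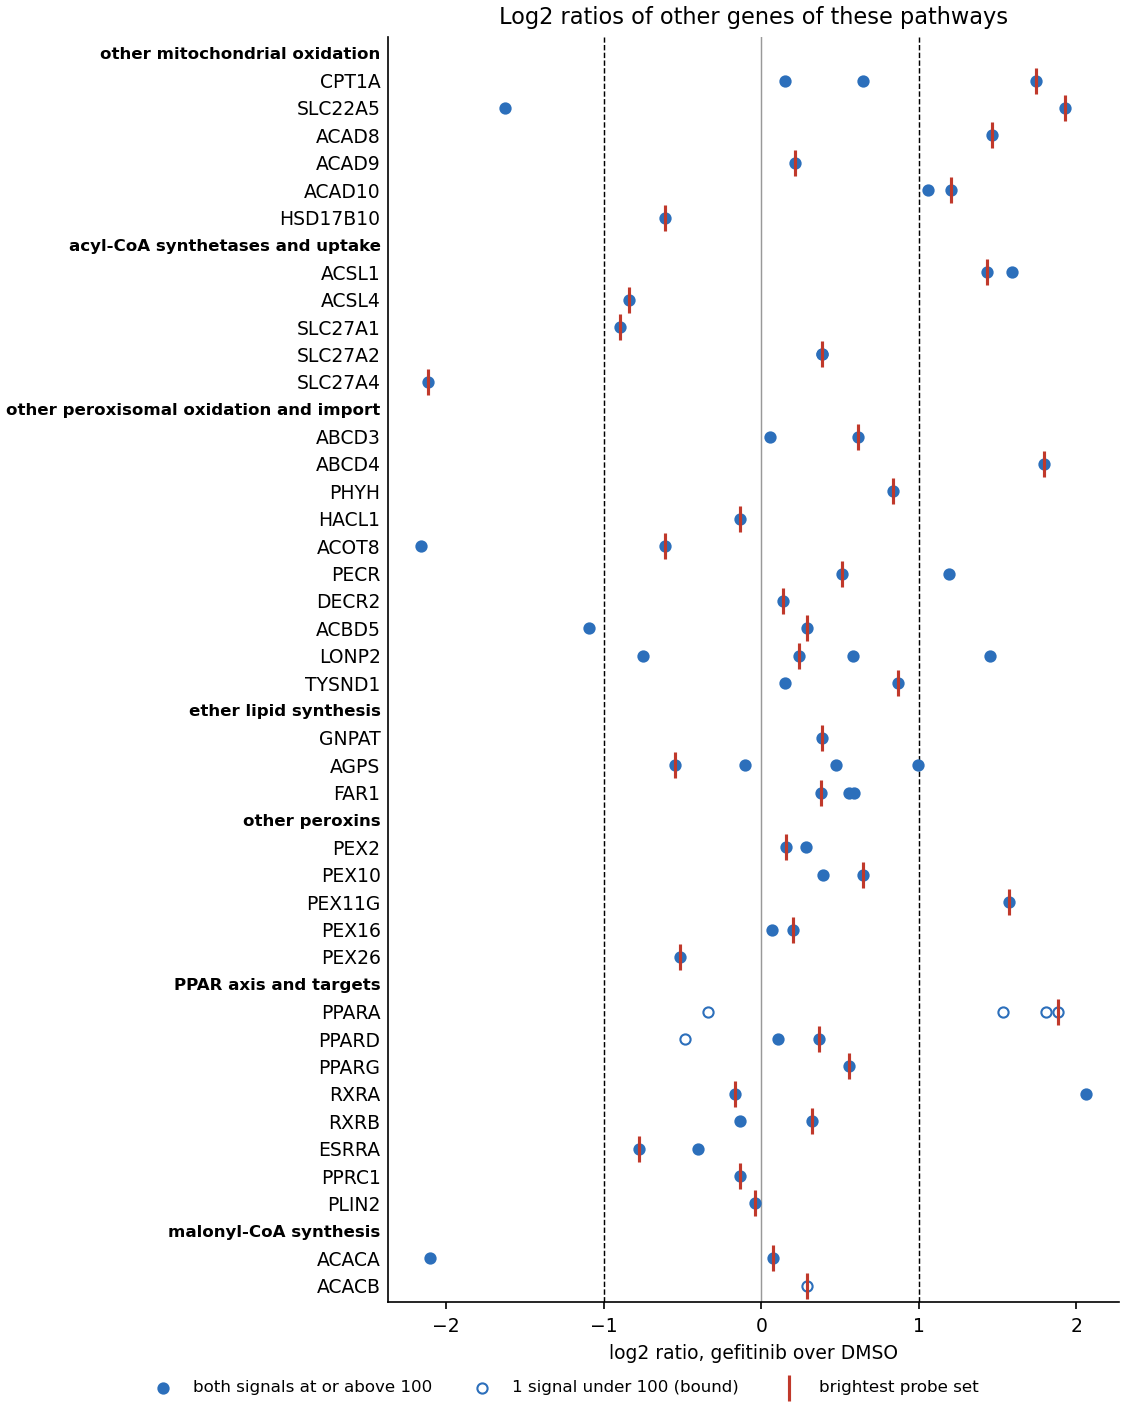
Measured probe sets of 39 further genes of these pathways by their log2 ratio of gefitinib over DMSO (horizontal axis), from 1 array per condition. A filled point had signals of 100 or more on both arrays, an open point is a bound, a red bar shows which probe set was brightest, and 2-fold is dashed. The probe sets of SLC22A5 lie at 1.93 and -1.63, and SLC27A4 at -2.11 is the lowest brightest probe set.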

How the data were processed

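RNA of 2 H322c samples, 1 per condition, was probed on Affymetrix U133 Plus arrays. The authors deposited MAS5 signal intensities on a linear scale, already scaled so that the 2% trimmed mean was 500.1 on each array. No version of MAS5 was stated. Of 54675 probe sets, 41097 had 1 gene in the platform annotation, 1801 had several and 11777 had none listed; only the first kind was used. Current symbols were taken from GRCh38.p14 by gene identifier (41043 matched). Detection calls were not used.

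The floor was 100, and each gene took its value from the measured probe set that was brightest on average over both arrays (log2). The members and lists were chosen with earlier results of these data known. Both signals were given for every measured member, and further pathway genes were named where any measured probe set was past 2-fold. Without replicates, the only spread at hand was that among a gene's probe sets, taken where neither signal was under the floor. Its SD in log2 ratio was 0.54 over 4610 genes and 0.51 over 16 members, and the spread between cultures is unknown. The alternatives were quantile normalization, centring on 100 control probe sets, scaling to GAPDH or to spike-ins, lowess (span 0.3), floors of 50 and 200, a pseudocount of 50 in place of the floor, other probe set rules, and folds of 1.5 and 3. One promoter sequence is not reported here. The procedure was run on simulated data, with changes set in bright genes and noise smaller than the spread between probe sets of a gene. That run does not bear on values near the floor. Python 3.11.15, numpy 2.4.6, pandas 2.3.3, statsmodels 0.14.6 and matplotlib 3.10.9 were used.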

Additional observations from a re-analysis of the deposited data

How the results depend on the processing

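No paired analysis was possible because there was 1 array per condition. Scaling moved the median log2 ratio of all measured genes by -0.18 (spike-ins), 0.13 (control probe sets) and 0.26 (GAPDH), and the share of higher genes among all those past 2-fold, 68.2% as deposited, was 50.5%, 78.3% and 85.6% under these scalings. The median of the members stood between 0.10 and 0.18 above that of all genes under the 11 alternatives of scaling, floor and probe set rule. The number of members at least 2-fold higher, 5 as deposited, was 8 with GAPDH scaling, between 4 and 6 under the other changes of scaling, floor or probe set rule, 10 at a threshold of 1.5-fold and 1 (ACADSB) at 3-fold. The number lower, 1, was 2 at 1.5-fold, ACOX2 and ACAT1, and otherwise 1. No member or list gene past 2-fold at its brightest probe set changed sign under these alternatives. The measured members and these list genes had 458 values under an alternative, and 12 moved by more than the SD between probe sets of a gene (0.54). With the mean over probe sets these were ACADSB, PEX5, CPT1A, SLC22A5 and PPARA (1.83, 0.87, 0.85, 0.15 and 1.22). With another floor or with log2 of the signal plus 50 they were ACOX2, CROT, PPARGC1B, PEX11G and PPARA. There the lower signal was under 100 or, for PEX11G, under 200. Signals under 100 limit what can be said of SLC25A20, ACADS, EHHADH and PPARGC1A.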
